A study of Homo sapiens with 4 samples.

Results

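The AP-1 transcription factor family was examined in SB cells, in which AEG-1 is silenced, against SCt control cells. The members are the genes JUN, JUNB, JUND, FOS, FOSB, FOSL1, FOSL2, ATF2, ATF3 and BATF3, the Jun, Fos and ATF proteins that can act on the promoter of the collagenase gene MMP1. They were found by matching the gene name or transcript accession of every probe that is not a control, which gave 14 of 34127 probes and 10 of 19062 named genes. ATF3 had 4 probes, ATF2 had 2 and each other member had 1. All 14 probes were above background and were tested.

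SB cells are SAS cells, a line from a human tongue squamous cell carcinoma, that stably carry a lentiviral pLKO.1 vector expressing shRNA-B against AEG-1, a membrane-associated oncoprotein also called LYRIC or MTDH. SCt cells are SAS cells that carry the control vector: the labels name the pLKO.1 vector, and the methods of the study a scrambled shRNA. Both lines were selected as stable clones for 14 days with 2 μg/ml puromycin, and both were grown with serum and puromycin. Each of the 4 arrays held RNA of SB cells in red and RNA of SCt cells in green, so a log2 ratio above 0 means a brighter signal from SB cells. With 1 shRNA line, 1 control line and 0 dye-swapped arrays, the effects of AEG-1, of the dye and of each line's own history cannot be told apart. The labels call the 4 arrays biological replicates without saying whether the RNA came from separate cultures, so p-values measure the spread between these arrays, which may be technical.

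AP-1 is not 1 protein but a set of dimers. A Jun protein pairs through its leucine zipper with another Jun, a Fos or an ATF protein, and the paired basic regions bind the sites TGACTCA (the phorbol ester response element) or TGACGTCA (the cAMP response element). Several members are immediate-early genes, switched on within minutes of growth factor or stress signals through the ERK, JNK and p38 kinases, and their proteins are controlled by phosphorylation and by turnover as well as by transcription. In squamous epithelium AP-1 acts on proteases, growth factor ligands and differentiation genes.

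The family is also known to act on its own promoters, JUN being a target of Jun and ATF2 dimers at the site TGACATCA. RefSeq promoter windows (GRCh38.p14) of 300 bases, 250 before and 50 after a gene's start, were at hand for 8 starts of 7 members. The entries do not include FOSL1, ATF2 and BATF3. TGACATCA was found in the windows of JUN and of 1 of the 2 starts of ATF3, and in 2.61% of all 35116 windows. Whether any motif bears on the changes below was not tested. Its first letter lay 67 bases before the start of JUN and 123 bases before that of ATF3. TGACGTCA was found in JUND alone of the 8 windows, 200 bases before the start, and in 1.85% of all windows. TGACTCA was found in FOSL2 alone, just after the start, and in 4.95% of all windows. The shorter TGACGT, which TGACGTCA contains, was found in JUND, FOS, FOSB and FOSL2, 4 of the 8 windows, and in 7.98% of all. Each motif was searched on both strands, and a match is a run of letters, not a bound site. The bases before the start are shown, 5′ to 3′ on the gene's strand, for JUN (chr1:58784048-58784297, minus strand), for the ATF3 start with a match (chr1:212565157-212565406, plus strand) and, to show the other ATF site, for JUND (chr19:18281623-18281872, minus strand). Capitals mark TGACATCA in JUN and ATF3 and TGACGTCA in JUND.
JUN: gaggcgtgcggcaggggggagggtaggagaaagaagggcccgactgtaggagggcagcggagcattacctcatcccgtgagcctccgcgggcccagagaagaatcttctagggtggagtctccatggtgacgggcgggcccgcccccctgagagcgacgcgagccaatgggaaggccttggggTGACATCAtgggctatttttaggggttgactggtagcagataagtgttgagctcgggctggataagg
ATF3: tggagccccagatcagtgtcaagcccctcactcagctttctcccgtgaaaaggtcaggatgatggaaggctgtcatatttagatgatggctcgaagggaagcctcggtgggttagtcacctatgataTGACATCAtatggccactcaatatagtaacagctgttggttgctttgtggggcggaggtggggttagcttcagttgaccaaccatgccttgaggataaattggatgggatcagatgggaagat
JUND: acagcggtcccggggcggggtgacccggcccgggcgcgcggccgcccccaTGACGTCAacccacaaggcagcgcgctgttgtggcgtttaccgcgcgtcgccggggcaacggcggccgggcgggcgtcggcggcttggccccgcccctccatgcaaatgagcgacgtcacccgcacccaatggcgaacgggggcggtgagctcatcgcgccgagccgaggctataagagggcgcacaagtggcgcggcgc

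The targeted gene checked the labels: MTDH had log2 ratios of -3.18, -3.01, -3.12 and -3.41 on arrays 1 to 4, a mean of -3.18 ± 0.17 (SD, n = 4; adjusted p = 5.22e-10, limma). Median intensities over spots were 655 to 875 in the SB channel and 362 to 588.5 in the SCt channel, and 84.7% to 90.3% of spots were well above background. Over the kept probes with values on all 4 arrays, the log2 ratios of arrays 1 and 4 hardly correlated (r = 0.0459). The other pairs of arrays had r of 0.322 to 0.461. All 8 squamous epithelial marker genes listed were kept and 0 were called. Of the markers of other cell types, 3 of 6 for fibroblasts, 4 of 4 for endothelium and 4 of 5 for leukocytes were also kept, so being kept is a lenient criterion, and 0 of these were called. In bulk RNA, fewer cells of a kind and less RNA per cell cannot be told apart.

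Of the 10 members, JUN alone passed the test at its brightest probe, and it was lower in SB cells. A gene was called where the adjusted p of limma, over all 28507 kept probes, was under 0.05. That is 10% of the members, and 4.19% of the 16583 named genes with a kept probe were called (1.22% higher and 2.97% lower). With 10 members, 1 call is a small count to set against that background. The median log2 ratio of the 10 members was -0.06, with a range of -0.35 to 0.15, and that of all named genes was 0.002. Log2 ratios lay on 1 side of 0 on all 4 arrays in 3 of 10 members, JUN and FOSL1 below 0 and BATF3 above it, and in 27.5% of named genes. An unadjusted p under 0.05 was found for 2 of 10 members and for 19.8% of named genes.

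**Figure D1:**
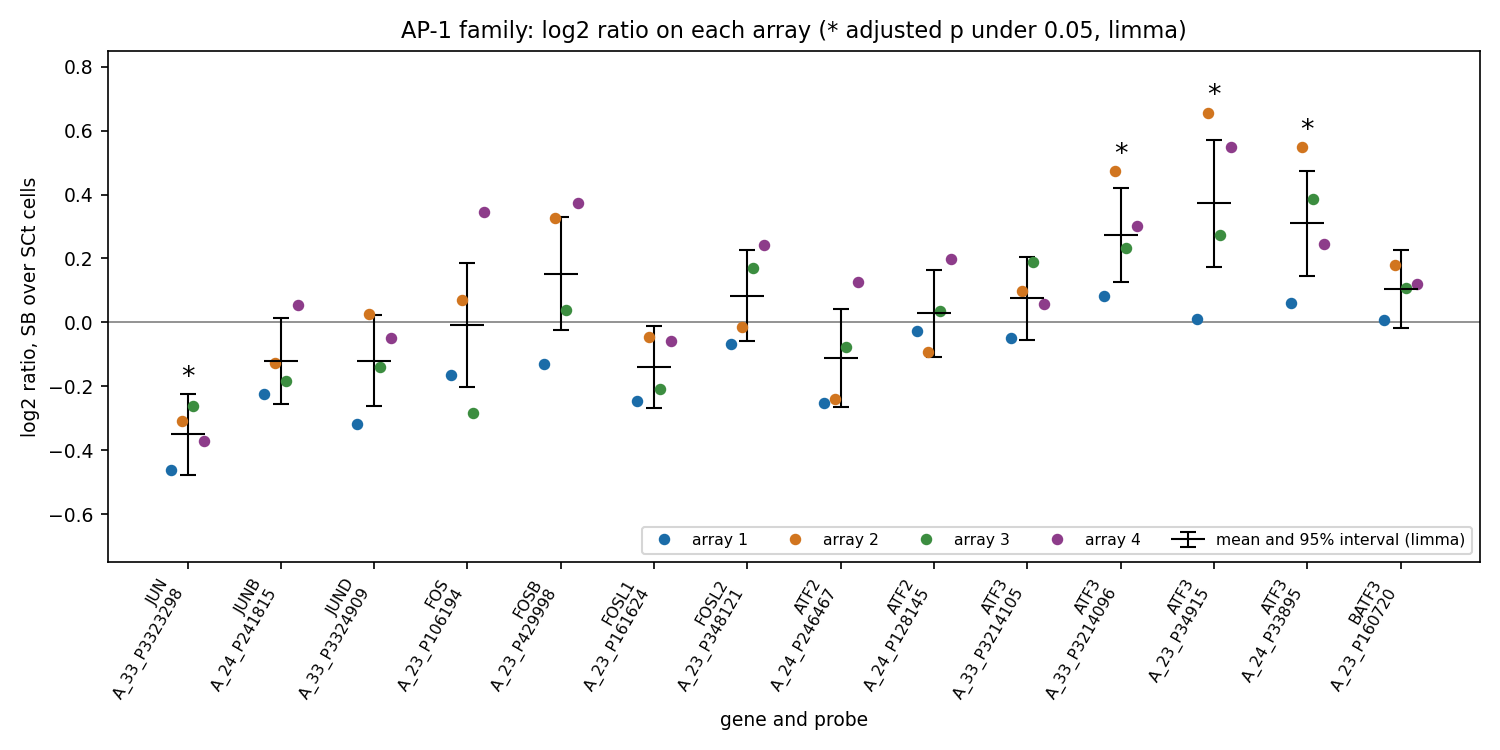
Log2 ratio of SB over SCt cells (vertical axis) for the 14 probes of the AP-1 family (horizontal axis), 1 point per array, with the mean and 95% interval of limma as bars and an asterisk where the adjusted p was under 0.05. JUN lies below 0 on all 4 arrays, the 3 further ATF3 probes lie above 0 on all 4, and the points of FOS lie on both sides of 0, its mean turning above 0 under median centring, as do those of JUNB and JUND.

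Among the Jun proteins, the partners that can pair with themselves and with all the others, JUN was the one that passed the test. The difference between JUN and the other Jun proteins was not tested, and their 95% intervals overlapped. JUN, the founding member, had log2 intensities of 9.47, 10.17, 10.16 and 9.73 in SB cells and of 9.93, 10.48, 10.42 and 10.10 in SCt cells on arrays 1 to 4. The channels overlapped across arrays, but on each array the SB channel was the dimmer. The log2 ratios of JUN were -0.46, -0.31, -0.26 and -0.37, a mean of -0.35 ± 0.09 (SD, n = 4; 95% interval -0.48 to -0.23; adjusted p = 0.00683, limma), which is 1.28-fold lower in SB cells. Only 0.930% of the kept probes had a lower mean, and 98.6% had a smaller change in either direction. The drop of JUN did not rest on 1 array, as its mean stayed between -0.38 and -0.31 without any 1 of them and it was called each time. The mean lay below 0 in all 16 processing alternatives (-0.38 to -0.27) and was called in 15, the exception being the methods' t-test (adjusted p = 0.222), by which 0 probes of the whole array were called, 3936 having an unadjusted p under 0.05. The exact sign-flip test on the 4 values of JUN gave p = 0.125 (2-sided), the smallest that 4 arrays allow.

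The other Jun proteins did not pass the test. JUNB, an immediate-early member that can dampen JUN's activity, had log2 ratios of -0.23, -0.13, -0.18 and 0.05, a mean of -0.12 ± 0.12 (95% interval -0.26 to 0.015; adjusted p = 0.326, limma). JUND, the Jun protein typical of resting cells, had -0.32, 0.03, -0.14 and -0.05, a mean of -0.12 ± 0.15 (95% interval -0.26 to 0.023; adjusted p = 0.355, limma). Both intervals reach down to -0.26. Both means had the other sign when arrays were centred on their median in place of loess (0.05 for JUNB and 0.06 for JUND, neither called). Under that setting probes as bright as these, within 0.5 on the log2 scale, had medians of 0.165 for JUNB and 0.172 for JUND, so both members stayed below them.

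The Fos proteins need a Jun partner to bind DNA, and none of the 4 passed the test. For FOS, FOSB and FOSL2 the SD of the log2 ratio between arrays was larger than its mean. FOS, the rapidly induced member, had log2 intensities of 14.53, 14.87, 14.70 and 13.95 in SB cells and of 14.70, 14.80, 14.99 and 13.61 in SCt cells. Its log2 ratios were -0.17, 0.07, -0.28 and 0.34, lower in SB cells on arrays 1 and 3 and higher on arrays 2 and 4. The mean was -0.01 ± 0.28 (95% interval -0.20 to 0.18; adjusted p = 0.972, limma), and its SD was larger than that of 96.5% of probes. The sign of that mean was not settled: it was 0.27 under median centring (adjusted p = 0.0203, limma), 0.04 without array 1 and 0.08 without array 3. FOSB, likewise rapidly induced, had log2 ratios of -0.13, 0.33, 0.04 and 0.37, a mean of 0.15 ± 0.24 (95% interval -0.02 to 0.33; adjusted p = 0.344, limma), with an SD larger than that of 94.1% of probes.

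The 2 Fos-related antigens were steadier than FOS and FOSB. FOSL1, also called FRA1 and linked to migration of carcinoma cells, had log2 ratios of -0.25, -0.05, -0.21 and -0.06, below 0 on every array, with a mean of -0.14 ± 0.10 (95% interval -0.27 to -0.01). Its adjusted p was 0.230 (limma). Named genes below 0 on all 4 arrays made up 14.7%. FOSL2, also called FRA2, had -0.07, -0.02, 0.17 and 0.24, a mean of 0.08 ± 0.15 (95% interval -0.06 to 0.23; adjusted p = 0.544, limma), with arrays on both sides of 0. Under median centring, where 31.4% of all kept probes were called, FOSB (0.27; adjusted p = 0.0277, limma) and FOSL2 (0.21; adjusted p = 0.0362, limma) were called higher. Under that setting probes as bright as these, within 0.5 on the log2 scale, had medians of 0.12 and 0.13, and those as bright as FOS had 0.25.

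The probes of ATF3, a stress-induced member that can repress as well as activate, did not give 1 answer after loess normalization. The brightest, A_33_P3214105 (accession NM_001674), had log2 ratios of -0.05, 0.10, 0.19 and 0.06, a mean of 0.07 ± 0.10 (95% interval -0.05 to 0.20; adjusted p = 0.544, limma). Under median centring it was called too (0.25; adjusted p = 0.0148, limma), so all 4 ATF3 probes were then called higher. Of all kept probes, 31.4% were called under that setting, and those as bright as A_33_P3214105 had a median of 0.18. The other 3 probes carry the accession NM_001040619 and were called higher in SB cells. A_33_P3214096 had 0.08, 0.47, 0.23 and 0.30, a mean of 0.27 ± 0.16 or 1.21-fold (adjusted p = 0.0490, limma). A_23_P34915 had 0.01, 0.66, 0.27 and 0.55, a mean of 0.37 ± 0.29 or 1.29-fold (adjusted p = 0.0460, limma). A_24_P33895 had 0.06, 0.55, 0.39 and 0.24, a mean of 0.31 ± 0.21 or 1.24-fold (adjusted p = 0.0440, limma). All 3 were above 0 on every array and close to 0 on array 1.

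Counted by probe, 4 of the 14 member probes were called, the 3 of ATF3 higher and that of JUN lower, where 3.7% of all kept probes were called (1.32% higher and 2.38% lower). The 3 ATF3 probes share 1 transcript accession and are not separate findings. Their mean exceeded the ratio of A_33_P3214105 by 0.10, 0.46, 0.11 and 0.31 on the 4 arrays, by 0.24 ± 0.17 on average, with an exact sign-flip p of 0.125 (2-sided), again the smallest possible. The 3 calls lay close to the threshold: each held in 7 of 15 alternatives, and each was lost without array 2 (means of 0.21 to 0.28; adjusted p from 0.198 to 0.244, limma) and without array 3 (means of 0.28 to 0.41; adjusted p from 0.198 to 0.256, limma). Of all kept probes, 1.48% were called without array 2 and 0.717% without array 3, against 3.7% with all arrays. Averaged over its 4 probes, ATF3 had a mean of 0.26 and was not called.

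ATF2 and BATF3 did not pass the test. ATF2, a partner of JUN that is activated by JNK and p38, had log2 ratios of -0.25, -0.24, -0.08 and 0.13 at probe A_24_P246467, a mean of -0.11 ± 0.18 (95% interval -0.26 to 0.04; adjusted p = 0.427, limma). Its second probe, A_24_P128145, had -0.03, -0.09, 0.04 and 0.20, a mean of 0.03 ± 0.13 (adjusted p = 0.853, limma), so the 2 probes lay on either side of 0 within their spread. BATF3, a small member without a transactivation domain, had 0.01, 0.18, 0.11 and 0.12, above 0 on every array, with a mean of 0.10 ± 0.07 (95% interval -0.02 to 0.23; adjusted p = 0.353, limma). Named genes above 0 on all 4 arrays made up 12.8%. BATF3 was the dimmest member, with a mean log2 intensity of 7.67, and its size of change depended on the processing. Its mean was 0.21 with the ratios of the scanner software (adjusted p = 0.135, limma) and 0.01 under median centring (0.912). Probes as bright as BATF3, within 0.5 on the log2 scale, had a median of -0.09 under median centring.

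The levels of several members moved between arrays in both cell lines at once, by more than they differed between the lines. The level here is the mean of both channels on the log2 scale, after Aquantile normalization, and is compared only within a probe. FOS had levels of 14.62, 14.84, 14.84 and 13.78 on arrays 1 to 4, and FOSB had 11.48, 12.19, 11.77 and 10.61. The level on array 4 minus the mean of the other arrays was thus -0.99 for FOS and -1.20 for FOSB. Of all kept probes, 0.633% and 0.295% had a lower difference. It was -0.73 for JUND and -0.56 for JUNB, and for ATF3 it was -2.08 at A_23_P34915 but -0.21 at A_33_P3214105. FOSL1 went the other way, with levels of 11.56, 11.80, 11.87 and 12.55, and stood 0.81 higher on array 4. The SD of the level between arrays was 0.30 for JUN, 0.50 for FOS and 0.67 for FOSB, against a median of 0.152 over kept probes. Both channels of an array share the hybridization and the spot but hold different RNA. Whether the hybridization, the spot or the RNA of both lines differed on array 4 cannot be told apart here.

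**Figure D2:**
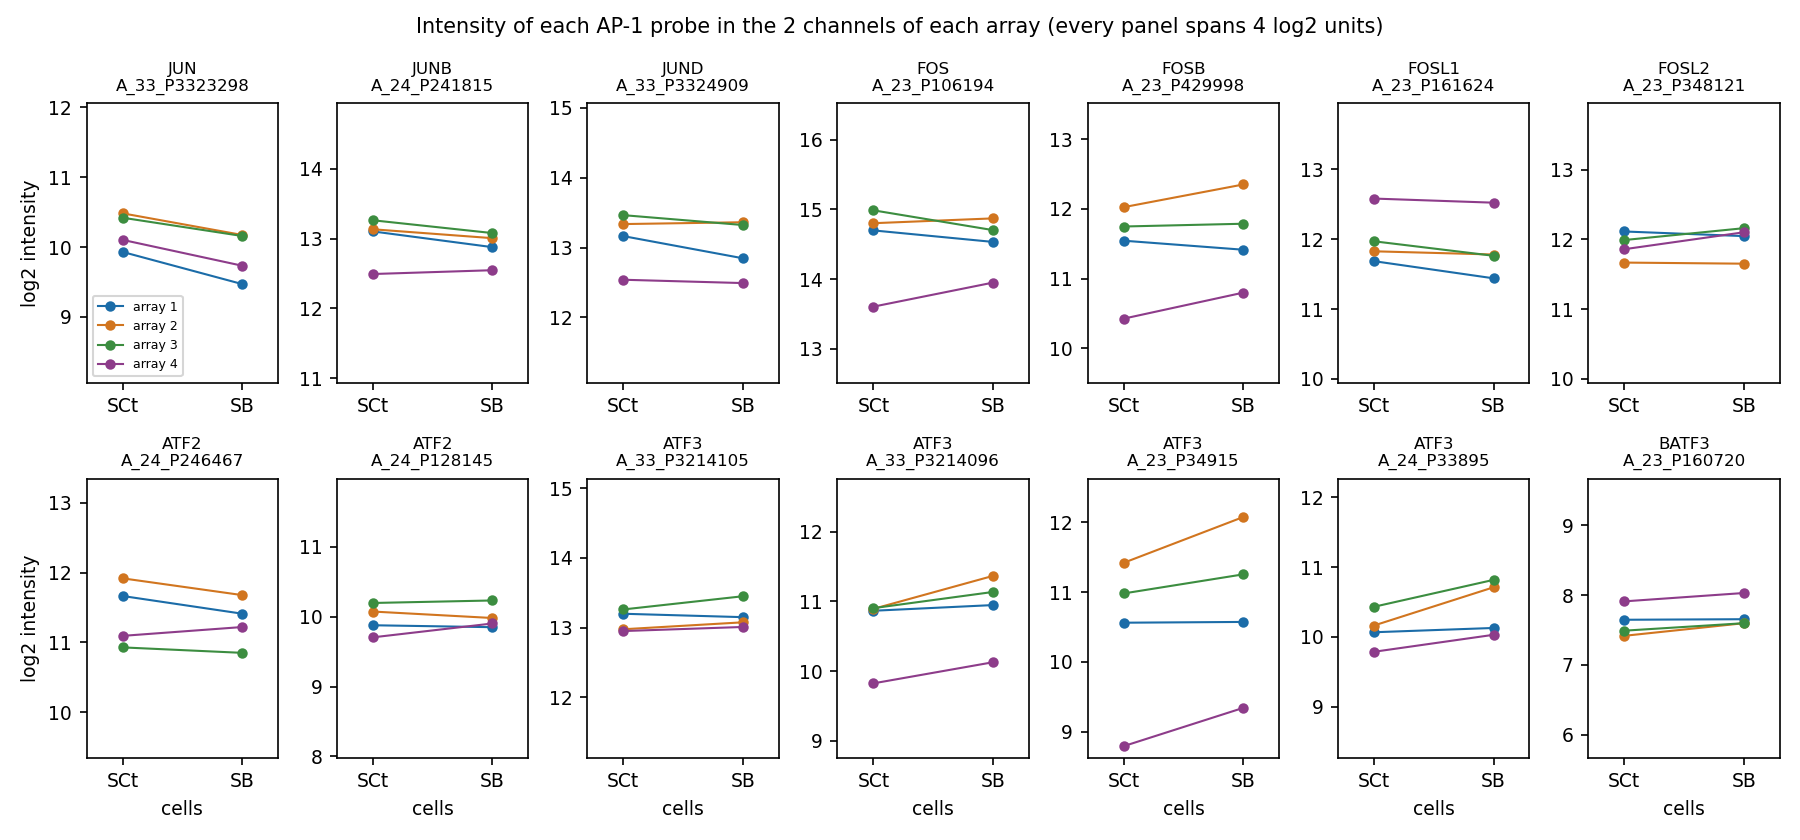
Log2 intensity after normalization (vertical axis) of each AP-1 probe in SCt and SB cells (horizontal axis), 1 line per array, every panel spanning 4 log2 units. The lines of JUN all fall from SCt to SB, those of FOS cross, and FOS, FOSB and ATF3 probe A_23_P34915 lie lowest on array 4 in both cell lines.

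Beyond the members, all 18 genes listed for other leucine zipper proteins, which can pair with the members or bind related sites, were tested. Of these 2 were called, both lower (11.1%, against 4.19% of named genes called and 2.97% called lower), and the median log2 ratio was 0.002. ATF4, the effector of the integrated stress response, had log2 ratios of -0.40, -0.21, -0.36 and -0.35, a mean of -0.33 ± 0.08 (adjusted p = 0.00948, limma). ATF1, a CREB relative, had -0.18, -0.28, -0.31 and -0.53, a mean of -0.33 ± 0.15 (adjusted p = 0.0177, limma). Both lay below 0 on every array. Without array 3 both calls were lost (adjusted p of 0.0890 for ATF4 and 0.132 for ATF1, limma), and that of ATF1 also without array 2 (adjusted p = 0.0664, limma). Of all kept probes, 0.717% were called without array 3 and 1.48% without array 2, against 3.7% with all arrays. ATF1 was also lost with the ratios of the scanner software (adjusted p = 0.0574, limma) and with the authors' table of ratios (0.0650), whereas ATF4 was called with both. Under median centring ATF4 had a mean of -0.01 and was not called, while ATF1 was. Probes as bright as FOS had a median of 0.25 under that setting, and no median was taken at the brightness of ATF4.

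Of the kinases, phosphatases, ternary complex factors and ubiquitin ligases that activate AP-1 genes or control AP-1 proteins, 26 of 27 were tested and 0 were called by limma, where 5 had an unadjusted p under 0.05, as had 19.8% of named genes, and the median log2 ratio was -0.001. MAPK8, which encodes JNK1, was not matched to a probe. The lowest p-values were those of MAP2K1, which encodes the ERK kinase MEK1, and of MAP3K1, a kinase upstream of JNK. MAP2K1 had log2 ratios of -0.30, -0.32, -0.51 and -0.02, a mean of -0.29 ± 0.20 (adjusted p = 0.0561, limma). It was called without array 4 (-0.38; adjusted p = 4.56e-04, limma), where its ratio was nearest to 0. MAP3K1 had -0.03, -0.07, -0.26 and -0.31, a mean of -0.16 ± 0.14 (adjusted p = 0.187, limma).

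Immediate-early genes outside AP-1, which share the serum response with FOS, FOSB and JUNB, were tested in 14 of 15 cases. Of these 5 were called (35.7%), all lower in SB cells, where 4.19% of named genes were called and 2.97% were called lower, and the median log2 ratio of the list was -0.19. Under median centring 4 of the 14 were called, where 31.4% of all kept probes were. Of the 5 calls, EGR3 and PHLDA1 were among these, both lower, and EGR1, IER2 and ZFP36 were not. EGR3, a zinc finger factor, had log2 ratios of -0.77, -0.78, -0.35 and -0.20, a mean of -0.52 ± 0.30 (adjusted p = 0.00973, limma). PHLDA1, which encodes a pleckstrin homology-like protein, had -0.45, -0.55, -0.61 and -0.45, a mean of -0.51 ± 0.08 (adjusted p = 5.58e-04, limma). These 2 genes had the largest falls of the list. ZFP36, which encodes the mRNA-destabilizing protein tristetraprolin, had -0.25, -0.46, -0.17 and -0.43, a mean of -0.33 ± 0.14 (adjusted p = 0.0175, limma). EGR1 had -0.29, -0.33, -0.29 and -0.34, a mean of -0.31 ± 0.03 (adjusted p = 0.00852, limma), the tightest of the 5. IER2, the fifth call, had -0.41, -0.36, -0.29 and -0.16, a mean of -0.30 ± 0.11 (adjusted p = 0.0177, limma).

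Calls of this list were lost on leaving out array 2 or array 3 and, for IER2, also array 1. Fewer of all kept probes were then called too: 1.48% without array 2, 0.717% without array 3 and 2.24% without array 1, against 3.7% with all arrays. Without array 3, EGR1 (adjusted p = 0.0621, limma), EGR3 (0.0890), ZFP36 (0.0607) and IER2 (0.118) were lost and PHLDA1 remained. Without array 2, EGR1 (adjusted p = 0.0616, limma), ZFP36 (0.113) and IER2 (0.106) were lost, and without array 1 IER2 (0.0781). With the ratios of the scanner software IER2 was lost too (adjusted p = 0.0643, limma). The authors' table of ratios lost IER2 (adjusted p = 0.0704, limma) and ZFP36 (0.0530). Under median centring the mean of EGR1 was -0.06, that of IER2 -0.09 and that of ZFP36 -0.19, and none of the 3 was called. Probes as bright as FOS had a median of 0.25 under that setting and those as bright as JUND 0.17. No median was taken at the brightness of these 3 genes. NR4A1 did not pass the filter on dim probes. The level on array 4 minus the mean of the other arrays was -1.59 for EGR3, -0.68 for ZFP36, -0.37 for PHLDA1, -0.33 for EGR1 and -0.30 for IER2, and over the 14 genes it ranged from -1.59 to 0.25.

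Of textbook AP-1 target genes, 23 of 26 were tested and 3 were called (13%), all lower in SB cells, against 4.19% of named genes called and 2.97% called lower, with a median log2 ratio of -0.007. MMP1, the interstitial collagenase whose promoter holds the classical AP-1 site, had log2 ratios of -2.07, -1.26, -1.68 and -1.60, a mean of -1.65 ± 0.33 or 3.15-fold lower (adjusted p = 5.27e-06, limma). Its call held without any 1 array (-1.78 to -1.52). The study had already reported MMP1 as lower in SB cells from these same arrays, so this call was known when the list was made. Apart from the arrays, it reported less MMP1 mRNA by RT-QPCR and less secreted MMP1 protein on silencing AEG-1. That held in SAS cells and in FaDu cells, a pharyngeal carcinoma line. It also reported lower activity of the longer MMP1 promoter reporters, and unaffected phosphorylation of c-jun, the protein of JUN. CXCL8, which encodes the neutrophil chemokine interleukin-8, had -0.58, -0.40, -0.59 and -0.09, a mean of -0.42 ± 0.23 (adjusted p = 0.0152, limma). The size of this fall depended on the background handling, being -0.81 with the ratios of the scanner software and -0.68 with normexp without an offset. VEGFA, the angiogenic growth factor, had -0.75, -0.32, -0.31 and -0.21, a mean of -0.40 ± 0.24 (adjusted p = 0.0203, limma). JUN and MMP1 were both lower in SB cells on all 4 arrays, by 1.28-fold and 3.15-fold, and whether the one bears on the other was not tested.

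The calls of CXCL8 and VEGFA were each lost without array 1 (adjusted p of 0.0663 and 0.0580, limma), without array 2 (0.0572 and 0.0564) and without array 3 (0.171 and 0.141). In these settings 2.24%, 1.48% and 0.717% of all kept probes were called, against 3.7% with all arrays. VEGFA was also lost with the ratios of the scanner software (adjusted p = 0.0798, limma) and with the authors' table of ratios (0.0886), whereas CXCL8 was called with both. With these ratios 2.65% and 2.43% of probes were called. MMP3, MMP10 and CCL2 did not pass the filter on dim probes. DUSP1 stood in 3 of these lists, at 0.09 ± 0.18 (adjusted p = 0.556, limma).

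The factors that act with AP-1 on the MMP1 promoter were not called: 8 of 8 were tested, 0 passed with limma, 2 had an unadjusted p under 0.05 (19.8% of named genes had), and the median log2 ratio was -0.04. These 2 were SP1, a ubiquitous GC-box factor, with log2 ratios of -0.004, -0.18, -0.14 and -0.21 and a mean of -0.13 ± 0.09 (adjusted p = 0.243, limma), and RUNX2, with 0.06, 0.22, 0.37 and 0.08 and a mean of 0.18 ± 0.14 (adjusted p = 0.150, limma). RELA, which encodes the p65 subunit of NF-κB and was singled out here after its values were seen, had a mean of -0.10 ± 0.12 (adjusted p = 0.407, limma).

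**Figure D3:**
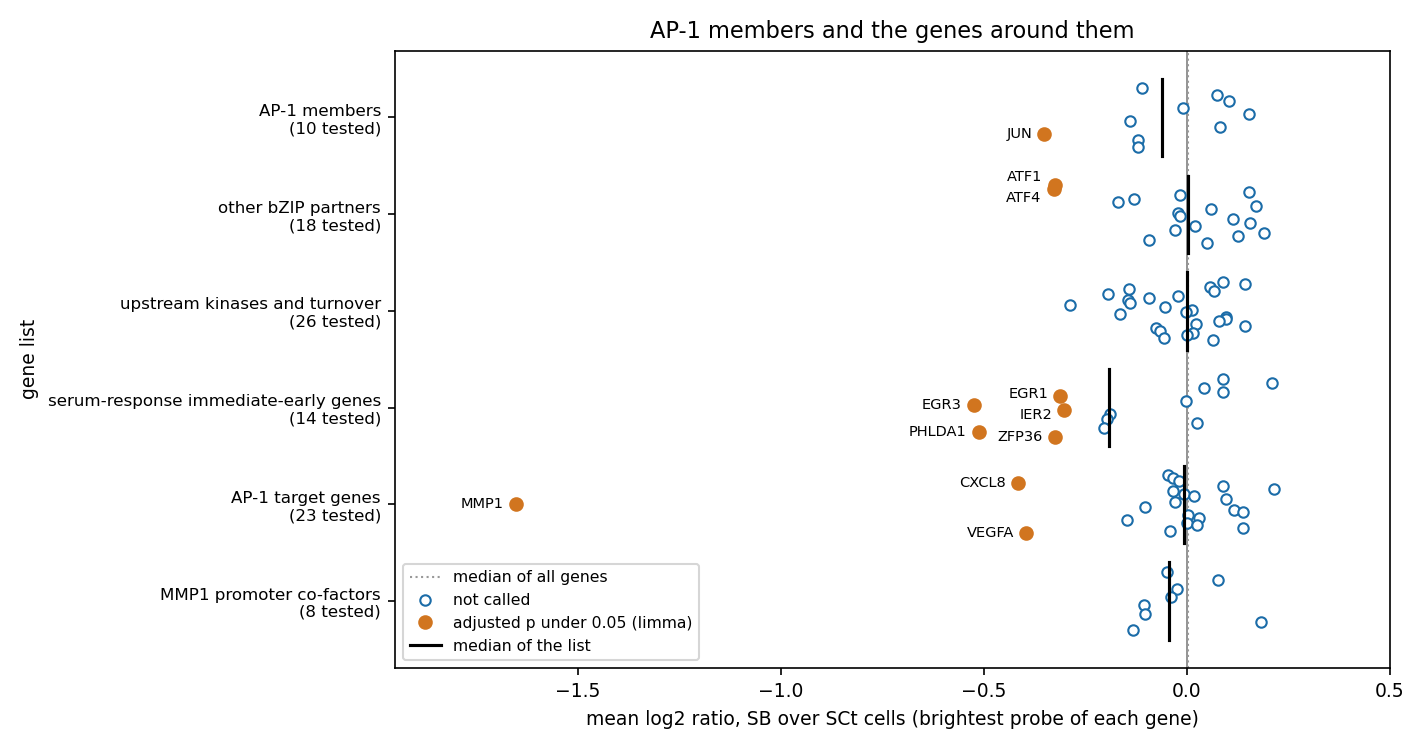
Mean log2 ratio of SB over SCt cells (horizontal axis) at the brightest probe of each gene, for the AP-1 members and 5 lists of genes around them (vertical axis), with filled points where the adjusted p of limma was under 0.05, a bar at each list's median and a dotted line at the median of all named genes. All 11 filled points lie below 0, MMP1 furthest at -1.65, and the immediate-early list has the lowest median at -0.19.

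**Figure D4:**
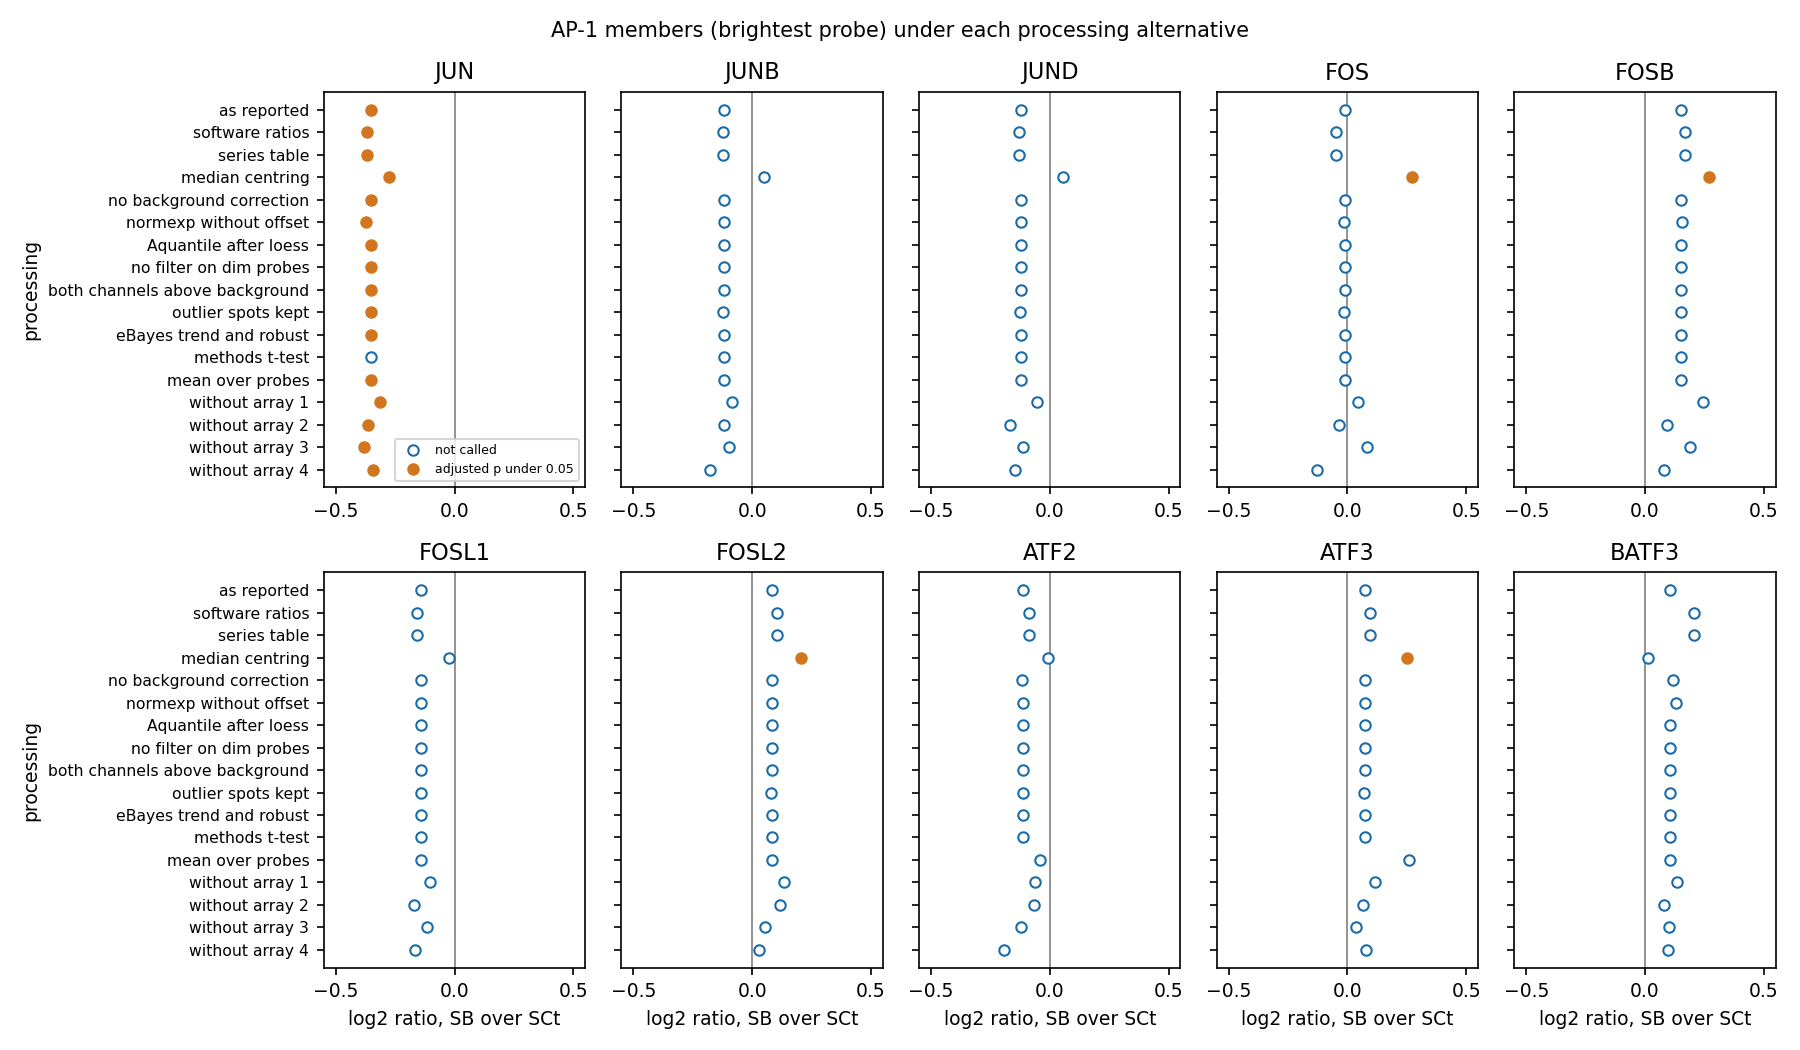
Mean log2 ratio of SB over SCt cells (horizontal axis) of the 10 AP-1 members as reported and under 16 processing alternatives (vertical axis), filled where the adjusted p was under 0.05. JUN lies below 0 throughout, whereas JUNB, JUND and FOS lie above 0 under median centring, and FOS also without array 1 or array 3.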

How the data were processed

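Gene expression of SB and SCt cells was measured on 4 two-colour arrays. For each array the authors deposited the output of Agilent Feature Extraction 10.5.1.1 (named in the submitters' processing notes), with median intensities of both channels on a linear scale, not normalized, and the software's ratio on a log10 scale after its own background subtraction and dye normalization. A table of log2 ratios for the series, deposited by the authors, held values that correlated at 0.974 to 0.999 with the software's ratio.

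All steps were run with limma 3.58.1 under R 4.3.3. Normexp (offset 50) was applied to all 44495 spots, the 1377 control spots were given no weight and then removed, spots marked as outliers by the software (814 to 1168 per array) were left out, and 0 spots were saturated. Loess normalization was done array by array, and log2 ratios were averaged over the spots of a probe. Levels per channel were taken after Aquantile normalization, which leaves ratios unchanged. Probes had to be well above background in 1 channel, the same on the 4 arrays and in at least 0.5 of their spots, with 2 values or more, which left 28507 of 34127 probes. Mean log2 ratios were tested against 0 with lmFit and eBayes, with Benjamini-Hochberg adjustment over all kept probes and a threshold of 0.05. A gene was represented by its brightest kept probe. Probes were named through their accession in RefSeq (GRCh38.p14), which matched 24826 of them and not 9301. Precision is limited by the number of arrays: log2 ratios had a median SD of 0.113 between arrays. All arrays were on 1 slide, so no slide block could be fitted. The steps were also run on simulated data, in which noise was drawn independently for each probe. Those data held no structure shared by many probes of 1 array, so that run cannot show how reliable the calls above are.

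The genes named are all members, MTDH, MMP1 and, from each other list, up to 4 called genes with the largest rise and up to 4 with the largest fall or, where none was called, the 2 with the lowest p. IER2, RELA, DUSP1, CCN1, CCN2, IER5, KLF6, MCL1 and the genes not kept or not matched were named outside this rule after their values were seen. One gene of the target list is not reported here and was left out of its counts. The members and lists were chosen with earlier results of these data known. The alternatives used median centring, the software's ratios, the series table, other background, filter, outlier and eBayes settings, the methods' t-test, the mean over a gene's probes, and leaving out each array. The build and alignment of the probe design were not used for positions.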

Additional observations from a re-analysis of the deposited data

How the results depend on the processing

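JUN kept its direction under all 16 alternatives. Members called numbered 1 except under median centring (5, where 31.4% of all kept probes were called) and the methods' t-test (0). JUNB (0.048), JUND (0.057) and FOS (0.27) lay above 0 under median centring; the cause was not tested. Leaving out 1 array moved FOS between -0.13 (without array 4) and 0.083 (without array 3). Median centring moved the median of all kept probes from 0.012 to 0.065.

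All probes called (1055) became 698 with the series table, 8939 under median centring, 579 with trend and robust eBayes and 0 by the methods' t-test (3936 at an unadjusted p under 0.05), and ranged from 204 without array 3 to 1977 without array 4. Leaving out an array gave 0 to 2 leucine zipper partners, 0 to 2 upstream genes, 1 to 7 immediate-early genes and 1 to 3 targets called, with members at 1. The software's ratios gave 1 partner and 2 targets, and the series values 1 partner, 3 immediate-early genes and 2 targets. Median centring gave 6 partners, 5 upstream genes, 4 immediate-early genes and 9 targets, where 31.4% of all kept probes were called. The mean over probes gave 1 upstream gene. By the methods' t-test each of these counts was 0, and MTDH (-3.18; adjusted p = 0.144) and MMP1 (-1.65; adjusted p = 0.198) were not called.

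The log2 ratio pairs both cell lines within each array. The tests on these ratios were therefore paired. A replicate block beyond this pairing could not be fitted, because it needs more than the 1 group of arrays. The number of arrays and 1 dye orientation limit the precision.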

Other observations

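One arrangement across the arrays, noticed after the values were seen, recurred among the members. The log2 ratios of both arrays 1 and 3 lay below those of both arrays 2 and 4 in 6 of 10 members at the brightest probe, namely JUNB, JUND, FOS, FOSB, FOSL1 and BATF3, in 5 of 14 immediate-early genes (CCN2, DUSP1, IER5, KLF6 and MCL1) and in 22.4% of 16583 named genes. Of the 4 ATF3 probes, 2 had it. These genes were measured on the same 4 arrays and are not independent, so the arrangement is given as a description without a test.

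CCN1, which encodes a matricellular protein and belongs to the immediate-early list, had the largest mean rise of that list, with log2 ratios of 0.20, 0.28, 0.21 and 0.15, a mean of 0.21 ± 0.05 (adjusted p = 0.0580, limma), above 0 on all 4 arrays but not called. It was named after its values were seen.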
